A study of Mus musculus with 10 samples.

Results

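The genes described here are the corticosteroid receptors and stress hormone targets of the mouse hippocampus: Nr3c1, Nr3c2, Fkbp5, Sgk1, Tsc22d3, Per1, Klf9, Zbtb16, Hsd11b1 and Crhr1. They are 10 of the 22255 genes of the deposited gene table, listed by symbol for their known roles with no cutoff on a measured value, although earlier results of these data were known when the list was made. RNA came from hippocampal synaptoneurosomes, a fraction enriched in resealed nerve endings and their postsynaptic partners, which also holds RNA of glia and of other cells. The mice were C57Bl/6J, called wild type in the library titles, and were given either vehicle (5 libraries) or AM6545 (5 libraries). AM6545 is an antagonist of the cannabinoid receptor CB1 that enters the brain poorly, and the series title calls its administration sub-chronic. Age, sex, dose, duration and batch are not given in the sources used here, nor is whether a library came from 1 animal or a pool, so a p-value measures only the spread between libraries. The question asked of the 10 genes was whether a hormonal signal from outside the brain could be read in their RNA after AM6545, and whether the genes rose and fell together from library to library.

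Corticosterone, the adrenal glucocorticoid of mice, enters the brain and binds a pair of nuclear receptors: the mineralocorticoid receptor (Nr3c2), with high affinity, and the glucocorticoid receptor (Nr3c1), with lower affinity. The hippocampus is known for holding much of both. The hormone-bound receptors leave a chaperone complex, enter the nucleus and induce target genes, among them Fkbp5, Sgk1, Tsc22d3, Per1, Klf9 and Zbtb16. Hsd11b1 encodes the enzyme that regenerates active corticosterone inside cells, and Crhr1 the receptor for corticotropin-releasing hormone.

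Library totals ran from 18106112 to 25899794 estimated counts. Each marker list overlapped between the groups in its summed level. In CPM (counts scaled to a common library total), the 10 oligodendrocyte markers summed to 14777 to 21378 in vehicle and 12572 to 28773 in AM6545 libraries, and the 8 excitatory synapse markers to 1809 to 2035 and 1844 to 2097. The 9 choroid plexus and ependymal markers were low in vehicle replicate 4, at 71.6, against a highest sum of 5078 in that group. No marker was at 0 in every library, and of the 5 nuclear-retained RNAs listed only Snhg11 was analysed here. In bulk RNA, fewer cells of a type and less RNA per cell cannot be told apart.

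None of the 10 genes passed the test of AM6545 against vehicle. All 10 passed the filter on low counts, and 0 had an edgeR quasi-likelihood adjusted p under 0.05, against 0.0% of the 14358 genes tested. At an unadjusted p under 0.05 the count was also 0 of 10, against 1.88% (270) of all genes. Over all genes the DESeq2 Wald test gave 0 adjusted and 276 unadjusted calls, and limma-voom with quality weights gave 1 and 706, with 0 of the 10 genes among either. The groups overlapped in CPM for all 10 genes, while 0.293% of all genes had groups that did not overlap. The fitted log2 fold changes ran from -0.20 to 0.17 with a median of -0.05 (2 above 0 and 8 below), beside a median of -0.01 and a 5th to 95th percentile range of -0.26 to 0.24 over all genes. The 95% intervals of the 10 folds lay between 0.670 and 1.46.

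**Figure D1:**
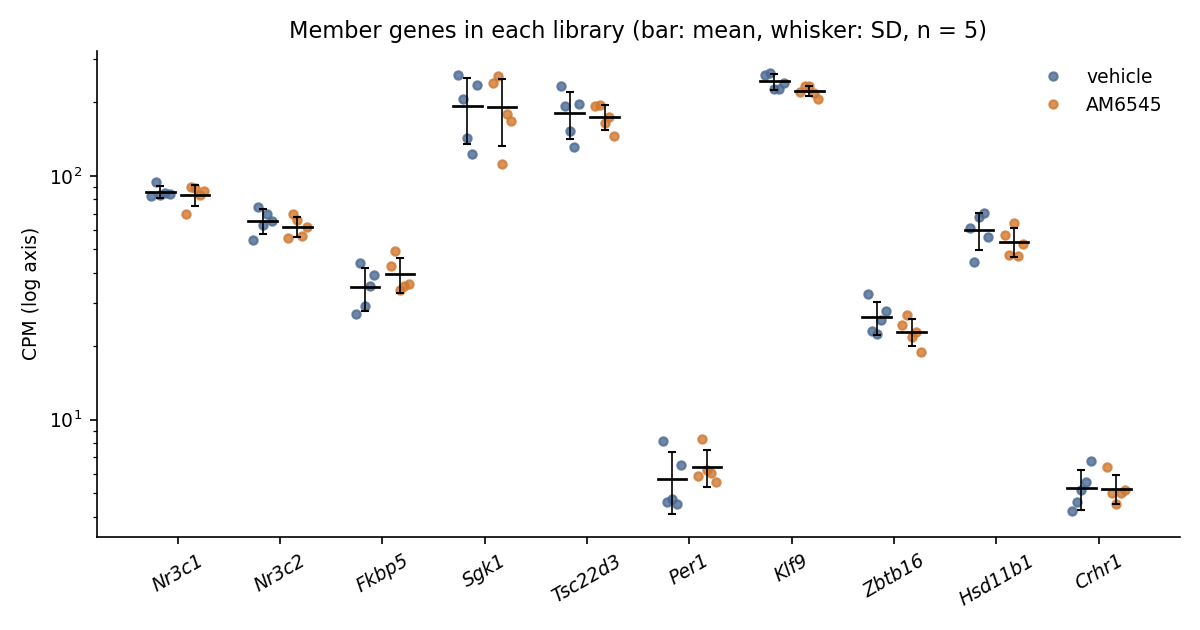
CPM of each of the 10 genes (log axis) in the 5 vehicle and 5 AM6545 libraries, with each point 1 library, the bar the mean and the whisker the SD. The groups overlap for every gene, and Sgk1 spans the widest range, from 111 to 258.

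**Figure D2:**
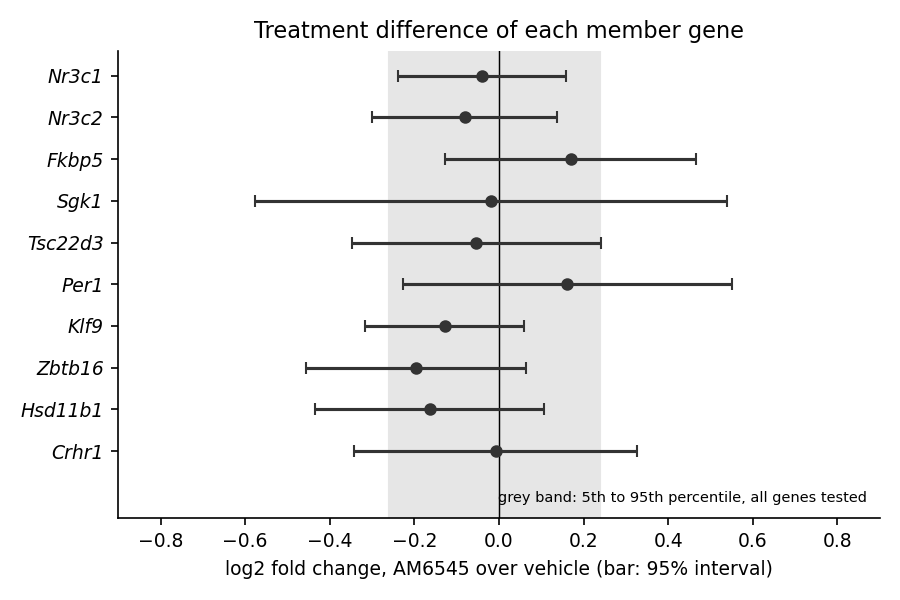
Fitted log2 fold change of AM6545 over vehicle for each gene (point) with its 95% interval (bar), over the 5th to 95th percentile of all 14358 genes tested (grey). Every interval includes 0, and the interval of Sgk1 is the widest.

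With Klf9, the 2 receptors had the lowest spread over libraries of the 10 genes. Nr3c1 measured 82.8, 94.3, 83.5, 85 and 84.0 CPM in vehicle replicates 1 to 5 and 69.8, 89.7, 88.8, 83.2 and 86.4 in AM6545 replicates 1 to 5. Vehicle replicate 2 was the highest and AM6545 replicate 1 the lowest of the 10 libraries, and the others lay within a narrow band shared by both groups. The means were 85.9 ± 4.74 in vehicle and 83.6 ± 8.12 in AM6545 (SD, n = 5 each). The log2 fold change was -0.04, its standard error (SE) 0.09 and the edgeR adjusted p 0.9998. The SD of its log2 CPM over the 10 libraries, 0.114, exceeded that of only 7.82% of genes tested, whose median was 0.209. That rank was not matched for level, and scarce genes carry a larger counting error. Nr3c2 measured 54.5, 74.2, 62.9, 70.0 and 65.5 CPM in vehicle and 55.7, 69.7, 65.9, 56.6 and 61.5 in AM6545, so its highest and its lowest library were both vehicle. Its means were 65.4 ± 7.46 and 61.9 ± 6.02 (log2 fold change -0.08, SE 0.10, edgeR adjusted p = 0.9998). Nr3c2 overlaps Gm10649 on the opposite strand, and the use of strand in counting is not given in the sources used here.

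The balance of the receptors is the ratio that decides, in the textbook account, how corticosterone is read by hippocampal neurons. The log2 ratio of Nr3c2 to Nr3c1 counts was -0.60, -0.35, -0.41, -0.28 and -0.36 in vehicle and -0.33, -0.36, -0.43, -0.56 and -0.49 in AM6545. Vehicle held both the lowest and the highest ratio. The means were -0.40 ± 0.12 and -0.43 ± 0.09 (SD, n = 5 each), a difference of -0.03 with a two-sided exact permutation p = 0.627, and the smallest p that all arrangements of the libraries allow is 0.00794. Across the 10 libraries Nr3c1 and Nr3c2 moved in parallel, with Pearson r = 0.729 (permutation p = 0.00602, adjusted over 45 pairs 0.135) and Spearman rho = 0.855 (permutation p = 0.003, adjusted 0.0675). The r was 0.752 within vehicle and 0.792 within AM6545, and 0.657 without the 2 libraries farthest from the median of Nr3c1. The adjusted values missed 0.05.

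Sgk1, a kinase that regulates ion channels and transporters, varied most. It measured 258, 207, 143, 123 and 236 CPM in vehicle replicates 1 to 5 and 241, 256, 111, 179 and 167 in AM6545 replicates 1 to 5. Both groups held libraries above 230 and libraries below 170, with a 2.32-fold span from AM6545 replicate 3 to vehicle replicate 1. The group means were close, at 194 ± 58.5 and 191 ± 58.6 (log2 fold change -0.02, SE 0.25, edgeR adjusted p = 0.9998), with a 95% interval of the fold from 0.670 to 1.45. The SD of its log2 CPM, 0.446, exceeded that of 90.5% of genes tested.

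Tsc22d3 encodes GILZ, a leucine zipper protein that mediates anti-inflammatory actions of glucocorticoids. It measured 233, 193, 152, 132 and 197 CPM in vehicle and 194, 196, 164, 174 and 146 in AM6545. The libraries high in Sgk1 were high in Tsc22d3: vehicle replicates 1, 2 and 5 and AM6545 replicates 1 and 2 held the 5 highest values of both genes. Its means were 182 ± 40.1 and 175 ± 20.9 (log2 fold change -0.05, SE 0.14, edgeR adjusted p = 0.9998).

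Per1, a clock gene that is also induced by glucocorticoids and by neuronal activity, was among the scarcest. It measured 8.20, 4.59, 4.72, 4.51 and 6.55 CPM in vehicle and 5.87, 8.32, 6.23, 6.03 and 5.54 in AM6545, with 91 to 169 counts a library. Vehicle split into 3 libraries below every AM6545 library and 2 within the AM6545 range. The means were 5.71 ± 1.63 and 6.40 ± 1.11 (log2 fold change 0.16, SE 0.18, edgeR adjusted p = 0.9998). The 95% interval of the fold, 0.855 to 1.46, was wide, and its counts were the lowest of the 6 targets. Its log2 fold change ranged from 0.05 without AM6545 replicate 2 to 0.33 without vehicle replicate 1.

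The start regions of the listed genes were searched for the letters that hormone receptors and other induction pathways are known to bind. RefSeq windows on GRCm38.p6 (the same assembly as mm10) from 250 bases before to 50 bases after a start site matched 8 of the 10 genes with 16 windows, and Nr3c1 and Zbtb16 were not searched. The receptor palindrome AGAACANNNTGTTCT, where N is any base, was in 1 of these 16 windows and in 0.00913% (3) of all 32851 windows. It lay in the window at the start of transcript Sgk1-202, at chr10:21993701-21993715 on the plus strand, from -189 to -175 relative to that start. This is 965 bases before the start of Sgk1-201, the transcript with most Sgk1 counts. Sgk1-202 held 3.97% of Sgk1 counts and was listed at 0 in vehicle replicate 4. The sequences below are the 250 bases before the start site, 5′ to 3′. They are shown because Sgk1 and Per1 were high in some of the same libraries. A link of these letters to the RNA levels was not tested. Capitals mark the palindrome in the first, and the CRE half-site TGACG and the E-box CACGTG in the Per1 sequence, while the Sgk1-201 sequence held none of the letters searched.
Sgk1-202, chr10:21993640-21993889, plus strand: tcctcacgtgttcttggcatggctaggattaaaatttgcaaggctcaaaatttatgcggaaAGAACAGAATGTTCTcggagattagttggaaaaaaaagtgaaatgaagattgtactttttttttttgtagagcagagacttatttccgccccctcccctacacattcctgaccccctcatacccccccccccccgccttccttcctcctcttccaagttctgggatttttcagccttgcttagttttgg
Sgk1-201, chr10:21994416-21994665, plus strand: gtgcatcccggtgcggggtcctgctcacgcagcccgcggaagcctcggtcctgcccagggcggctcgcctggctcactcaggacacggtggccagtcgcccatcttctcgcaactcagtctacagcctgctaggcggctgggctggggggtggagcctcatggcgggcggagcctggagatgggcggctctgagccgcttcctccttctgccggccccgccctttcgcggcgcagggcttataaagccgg
Per1-201, chr11:69098699-69098948, plus strand: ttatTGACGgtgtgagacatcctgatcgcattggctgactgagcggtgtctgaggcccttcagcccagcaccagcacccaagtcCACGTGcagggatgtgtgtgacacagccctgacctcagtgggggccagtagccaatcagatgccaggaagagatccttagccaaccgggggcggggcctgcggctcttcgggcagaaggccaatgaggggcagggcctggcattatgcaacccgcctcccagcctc

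Both strands were searched, and each palindrome match also holds its own half-sites. Of the 16 windows 6 were of Sgk1, so counts of windows are not counts of genes. The receptor half-site TGTTCT was in 4 of the 16 windows, all of Sgk1 or Tsc22d3, and in 19.0% of all windows. The E-box was in 3 of 16 and 7.15%, and the CRE half-site in 5 of 16 and 20.8%. In the Sgk1-202 window an E-box overlapped a further half-site upstream of the palindrome. In the Per1-201 window the CRE half-site began at -246 and the E-box at -166. A further Per1 window, at the start of Per1-204, held a CRE half-site at -132. The Fkbp5 window had an E-box at -169 and no receptor palindrome. The Klf9 window had a CRE half-site at -46, and the Hsd11b1, Nr3c2 and Crhr1 windows held none of the letters searched. Of the 3 Tsc22d3 windows, the one at the start of Tsc22d3-202 held none of the letters searched, the one nearest Tsc22d3-203 a receptor half-site at -185, and the one nearest Tsc22d3-206 a CRE half-site at -224. For none of the 3 was Tsc22d3-201, the transcript with most Tsc22d3 counts, the nearest transcript. How far its start lies from these windows is not given here. A match is a description of letters, and no match says only that these letters are not in this window.

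Fkbp5, the co-chaperone that lowers the hormone affinity of the glucocorticoid receptor and is induced by it in turn, had a positive fold change, as did Per1, without passing the test. It measured 27.0, 44.0, 29.2, 35.5 and 39.4 CPM in vehicle and 42.6, 49.3, 33.9, 35.2 and 35.9 in AM6545. AM6545 replicate 2 lay above every vehicle library, and the other 4 lay inside the vehicle range. The means were 35.0 ± 7.0 and 39.4 ± 6.46, a fold of 1.12 with a 95% interval of 0.916 to 1.38 (edgeR unadjusted p = 0.243, adjusted p = 0.9998). Its log2 fold change of 0.17 was 0.08 without AM6545 replicate 2, 0.09 without vehicle replicate 1, 0.11 without vehicle replicate 3 and 0.26 without vehicle replicate 2.

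Klf9 and Zbtb16, transcription factors that rise with corticosteroid exposure in many tissues, had lower means after AM6545 without passing the test. Klf9 measured 260, 264, 226, 227 and 241 CPM in vehicle and 221, 234, 234, 218 and 207 in AM6545. In 3 AM6545 libraries it lay below every vehicle library, and the means were 244 ± 18.1 and 223 ± 11.5 (log2 fold change -0.13, SE 0.09, edgeR unadjusted p = 0.168, adjusted p = 0.9998). Zbtb16 measured 32.6, 23.2, 22.4, 25.5 and 27.9 CPM in vehicle and 24.4, 26.9, 21.9, 22.8 and 18.9 in AM6545. It had the smallest unadjusted p of the 10 genes, 0.128 in edgeR, with 2 AM6545 libraries below every vehicle library and a log2 fold change of -0.20 (SE 0.12), which was -0.11 without vehicle replicate 1.

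Hsd11b1, the reactivating enzyme, measured 61.3, 44.4, 67.9, 70.3 and 56.1 CPM in vehicle and 57.0, 47.2, 64.3, 46.9 and 52.4 in AM6545. Vehicle held both its highest and its lowest library (log2 fold change -0.16, SE 0.13, edgeR unadjusted p = 0.216, adjusted p = 0.9998). Without vehicle replicate 2 the fold change was -0.25 with an edgeR unadjusted p = 0.0398, and the adjusted p was 0.915. In that fit 4.0% (578) of 14460 genes had an unadjusted p under 0.05. Crhr1 was scarce, from 4.22 to 6.76 CPM (82 to 165 counts), with means of 5.25 ± 0.981 and 5.22 ± 0.71 that lay well within the SD of either group.

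Per kilobase of exon, which allows a rough comparison of genes, the mean level over the 10 libraries was highest for Klf9. It was at 48.4 ± 3.73 CPM per kb (SD, n = 10). The length was that of all annotated exons of a gene, whichever transcripts held its counts, so the order depends on the annotation. Tsc22d3 at 41.0 ± 6.99 and Sgk1 at 39.2 ± 11.3 came next, and the mean ± SD intervals of these neighbours overlapped. Hsd11b1 (13.4 ± 2.14), Nr3c1 (11 ± 0.831) and Nr3c2 (9.83 ± 1.03) formed a middle band in which the same intervals of neighbours overlapped. Zbtb16 (4.67 ± 0.722) and Fkbp5 (3.93 ± 0.713) lay below and overlapped each other, followed by Crhr1 (2.13 ± 0.328) and Per1 (1.08 ± 0.242), which did not.

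With all 10 libraries and Pearson's r, 5 of the 6 targets were positively correlated with one another. Among the 6 targets the median of the 15 pairwise Pearson correlations of log2 CPM over the 10 libraries was 0.574, and 13 of the 15 were above 0, beside a median of -0.003 over all pairs of genes tested. Of all gene pairs, 9.12% reached that median. The 10 pairs without Fkbp5 had a median of 0.618 and none below 0.211, while the 5 pairs with Fkbp5 ran from -0.10 to 0.37. This order changed when the 2 libraries farthest from the first gene's median were left out of each pair: Fkbp5 then had r = 0.722 with Sgk1, 0.671 with Tsc22d3, 0.446 with Klf9, 0.327 with Zbtb16 and 0.127 with Per1. In the same setting Per1 had r = -0.231 with Klf9 and 0.101 with Zbtb16. By Spearman's rho all 5 pairs with Fkbp5 were above 0, at 0.01 to 0.33. Of the 45 pairs of the 10 genes, 7 had an unadjusted permutation p under 0.05 for Pearson's r and 5 for Spearman's rho, and 0 passed after adjustment over the 45 by either. Points share a library, its depth and its cell makeup, so the 45 correlations are not independent of one another.

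**Figure D3:**
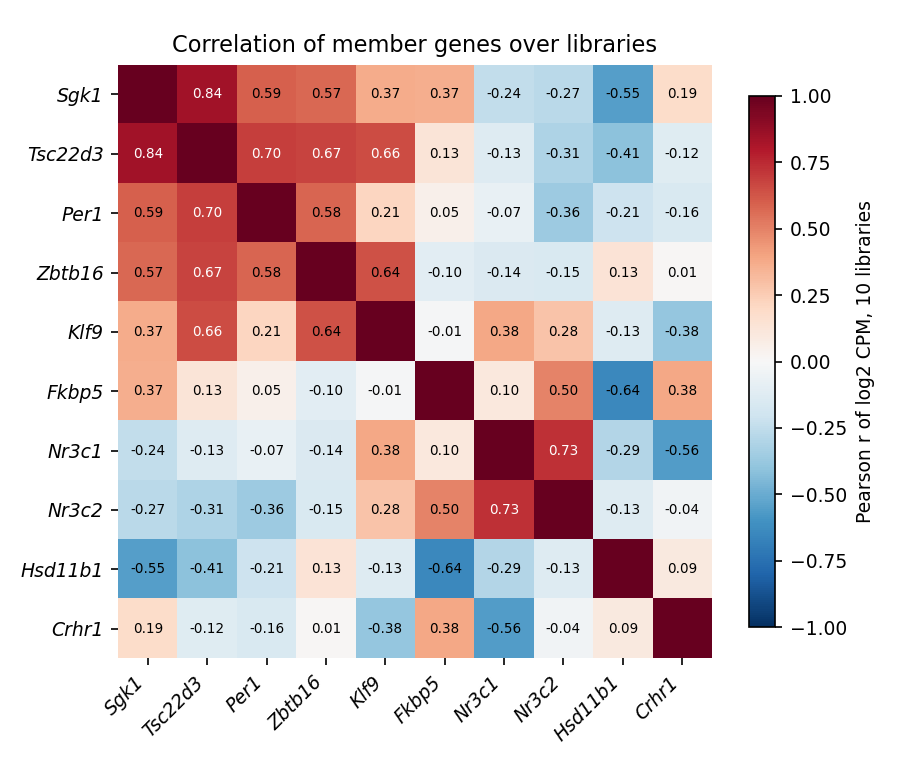
Pearson r of log2 CPM over the 10 libraries for each pair of the 10 genes, from blue (negative) to red (positive). The block from Sgk1 to Klf9 is positive throughout, at 0.21 to 0.84, whereas Fkbp5 lies near 0 with 4 of those 5 genes and at 0.37 with Sgk1.

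The closest pair was Sgk1 and Tsc22d3. Their Pearson r was 0.840 (permutation p = 0.00261, adjusted over 45 pairs 0.117) and their Spearman rho 0.879 (permutation p = 0.00154, adjusted 0.0675). The r was 0.982 within vehicle, 0.702 within AM6545 and 0.896 without the 2 libraries farthest from the median of Sgk1. Leaving out 1 library at a time gave r from 0.793 to 0.937, and the pair passed the adjusted threshold in 1 of these 10 settings, without AM6545 replicate 3 (adjusted p = 0.0081). Of all gene pairs, 0.971% had an r at or above 0.840. Among the other 14357 genes tested, Tsc22d3 ranked 10th for likeness to Sgk1, and Per1, Zbtb16 and Klf9 ranked 146th, 191st and 234th for likeness to Tsc22d3. Tsc22d3 had r of 0.695 with Per1, 0.673 with Zbtb16 and 0.656 with Klf9, each with an adjusted p of 0.308. Without the 2 libraries farthest from the median of Tsc22d3 these were 0.401, 0.852 and 0.608.

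No test compared the correlations of Fkbp5 with those of the other targets. Vehicle replicate 1 held the highest Sgk1, Tsc22d3 and Zbtb16 and the lowest Fkbp5. The r of Fkbp5 with Sgk1 was 0.04 within vehicle and 0.86 within AM6545, and with Per1 it was -0.46 and 0.76. With 5 libraries in each group these values are a description, and the difference between groups was not tested. Its correlation with Hsd11b1 was negative, at r = -0.641 (permutation p = 0.0479, adjusted 0.308).

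The genes whose pattern over the 10 libraries was most like each of these 3 targets came from all 14357 others. For Fkbp5 they were Ddi2 (r = 0.973), Rnf219 (0.972) and Spty2d1 (0.968), each closer to it than any other receptor target. For Sgk1 they were Plekhf1 (0.915), Gm5796 (0.901, at a mean of only 0.495 CPM) and Polr3e (0.882). For Tsc22d3 they were Tac2 (0.927), Irs2 (0.918), an insulin receptor substrate, and Ranbp10 (0.910). All were picked as the highest r among 14357 genes over only 10 libraries, and these values were not tested.

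No relation of a gene with a marker list or with depth passed its test. The lists included excitatory synapse, dentate granule cell and CA1 pyramidal cell markers beside those of other cells. Over 110 relations, of each gene with 10 marker lists and with the log2 library total, 5 had an unadjusted permutation p under 0.05 by Pearson's r and 6 by Spearman's rho, and 0 passed after adjustment by either. The r of Sgk1 with the oligodendrocyte markers was negative (r = -0.746, permutation p = 0.00957, adjusted 0.75, and -0.532 without the 2 farthest libraries). AM6545 replicate 3 had the lowest Sgk1 and the highest mean log2 CPM of oligodendrocyte markers, 8.94. The r of oligodendrocyte markers with Zbtb16 was -0.463 (rho = -0.745, permutation p = 0.0173, adjusted 0.476), with Tsc22d3 -0.379 and with Per1 -0.223. The r was -0.680 for Nr3c1 with the library total and -0.651 for Nr3c1 with microglial markers. It was 0.677 for Nr3c2 with dentate granule cell markers and -0.657 for Crhr1 with red blood cell markers. Each of these r had an adjusted permutation p of at least 0.75. By Spearman, Nr3c1 with microglial markers had rho = -0.794 (permutation p = 0.00869, adjusted 0.476). Nr3c2 with dentate granule cell markers had rho = 0.794 (permutation p = 0.00933, adjusted 0.476). The part of cell makeup or depth in these patterns was not tested.

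At the transcript level, 25 of 69 transcripts of the 10 genes passed the filter on low counts and 0 had an edgeR adjusted p under 0.05, against 0.00314% (1) of 31848 transcripts tested. At an unadjusted p under 0.05 there were also 0, against 1.97% of all. A single transcript held most of the gene's counts for Crhr1 (Crhr1-201, 100%), Fkbp5 (Fkbp5-201, 99.4%), Klf9 (Klf9-201, 90.4%) and Sgk1 (Sgk1-201, 85.8%). The leading share was lower for Per1-201 (79.8%), Nr3c2-204 (65.4%), Hsd11b1-205 (61.2%), Zbtb16-201 (51.4%) and Nr3c1-203 (48.0%). Shares within a gene rest on how reads common to its transcripts were divided, and the error of that division is not in the tables.

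Of the 2 main transcripts of Tsc22d3, 1 spread widely over libraries and the other did not, a contrast that was chosen after the values were seen. Tsc22d3-201, a coding transcript with 52.3% of the gene's counts, measured 147, 115, 64.4, 49.6 and 106 CPM in vehicle and 108, 125, 76.5, 86.6 and 59.9 in AM6545. Tsc22d3-202, annotated as a processed transcript and with 44.4% of the counts, stayed between 67.0 and 83.6 CPM in all 10 libraries. Tsc22d3-201 followed Sgk1 (r = 0.853, permutation p = 0.00274, adjusted over 5 relations 0.0137; rho = 0.879, adjusted 0.0086), with r = 0.975 within vehicle, 0.725 within AM6545 and 0.868 without the 2 farthest libraries. The r of Tsc22d3-202 with Sgk1 was -0.331 (adjusted p = 0.471), and the difference between the 2 correlations was not tested. Because these relations were picked from the data and reuse the libraries of the gene pair, their p-values are not independent support for it. Neither transcript passed the treatment test, with log2 fold changes of -0.08 (SE 0.30) and -0.02 (SE 0.08).

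**Figure D4:**
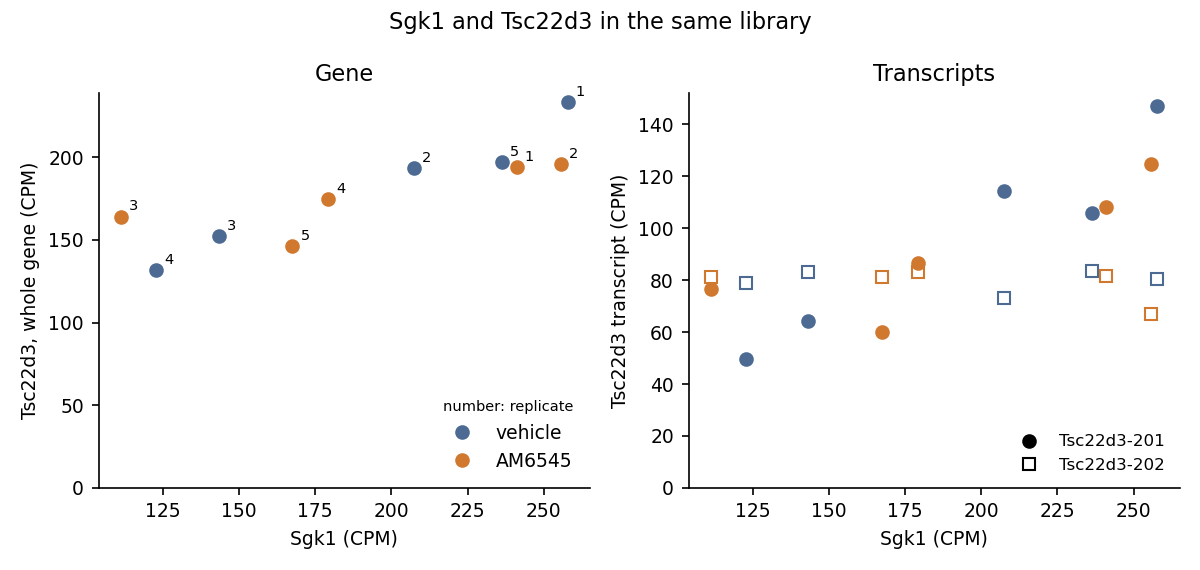
Left, CPM of Sgk1 against Tsc22d3 in each library, with replicate numbers. Right, CPM of Sgk1 against Tsc22d3-201 (filled circles) and Tsc22d3-202 (open squares): the first climbs from 49.6 to 147 and the second stays at 67.0 to 83.6.

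In other genes, too, a transcript was listed at 0 in some libraries and not in others, and these examples were also chosen after the values were seen. Hsd11b1-203 was listed at 0 in AM6545 replicate 2 and took up to 39.8% of the gene's counts elsewhere. Per1-203 took 71.8% of the Per1 counts in vehicle replicate 1, where Per1-201 held 22.8%, and was listed at 0 in 8 of the other 9 libraries. Nr3c1-204 was listed at 0 in vehicle replicate 2 and AM6545 replicates 1 and 2 and took up to 33.5% of the gene's counts elsewhere, while Nr3c1 as a whole stayed between 69.8 and 94.3 CPM.

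The wider pathway gave 0 of 82 tested genes past the edgeR adjusted threshold and 0 at an unadjusted p under 0.05, against 1.88% of all genes. The 6 lists held 91 genes, and those not tested had too few counts. For each list, the count of genes with a log2 fold change above 0 is a description, and its direction was not tested. The share of all genes above 0 was not computed, and genes of the same list are not independent. The median log2 fold change over all genes tested was -0.01. Of 12 receptor chaperones, the heat shock proteins and partners that hold the receptor ready for hormone, 10 had a log2 fold change above 0, with a median of 0.08. Hspa4 had the smallest p of these, at 59.4 ± 8.28 and 71.4 ± 13.3 CPM in vehicle and AM6545 (edgeR unadjusted p = 0.0607), followed by Ptges3, the p23 co-chaperone, with a log2 fold change of 0.11. Of 10 receptor coregulators 3 were above 0 (median -0.04). The corepressor Ncor1 was at 351 ± 15.5 and 324 ± 17.7 CPM (edgeR unadjusted p = 0.212), below every vehicle library in 4 of 5 AM6545 libraries. Ncoa2, named here for the same placing in 4 libraries, had a log2 fold change of only -0.03 (edgeR unadjusted p = 0.749). The share of all genes with libraries so placed was not computed. The coactivator Ncoa3 had a log2 fold change of -0.15.

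Of the steroid handling and CRH genes, 9 of 16 were tested and 2 were above 0 (median -0.11). Abcb1a, a drug and steroid efflux pump of the blood-brain barrier, was scarce at 1.11 ± 0.213 and 0.690 ± 0.330 CPM (edgeR unadjusted p = 0.0526, adjusted p = 0.9998). It was below the whole vehicle range in 4 of 5 AM6545 libraries, on 8 to 31.2 counts a library. The share of all genes with libraries so placed was not computed. The vasopressin receptor Avpr1a was at 0.478 ± 0.318 and 0.833 ± 0.682 CPM. Hsd11b2, Serpina6, Ucn, Ucn2, Ucn3, Avpr1b and Mc2r did not pass the filter.

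Of 26 other glucocorticoid-induced genes that were tested (Plin4 and Lcn2 were too low), 12 were above 0 and 14 below, with a median of -0.03. Mt2, a metallothionein, was at 42.8 ± 11.4 and 37.5 ± 3.99 CPM, and Gpd1, a glycerol phosphate dehydrogenase, at 108 ± 13.9 and 118 ± 13.2. Of 15 circadian genes 10 were above 0 (median 0.08), with Cry2 at a log2 fold change of 0.18 and Dbp at 0.21. Of 10 activity-induced genes 4 were above 0 (median -0.07), with Fosb at -0.70 (SE 0.44) and Arc at 0.16.

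Over libraries, most genes of several lists had a positive r with Sgk1 or Tsc22d3, the other glucocorticoid-induced genes among them. For that list the r with Sgk1 was above 0 for 25 of the 26 genes, with a median of 0.38, beside 56.0% and a median of 0.05 over all genes tested. With Tsc22d3 it was above 0 for 24 of 26 (median 0.54), beside 53.3% and 0.03 over all genes. With Fkbp5 it was above 0 for 11 of 26 (median -0.08), beside 49.8% and 0.00 over all genes. Among the highest, chosen after their values were seen, were the arrestin-domain gene Arrdc2 (r = 0.874 with Sgk1 and 0.799 with Tsc22d3), the NF-kappaB inhibitor Nfkbia (0.697 and 0.838) and the transglutaminase Tgm2 (0.798 and 0.730). Activity-induced genes were also above 0, in 9 of 10 with Sgk1 (median 0.48) and 10 of 10 with Tsc22d3 (median 0.49), with Egr1, an immediate early gene chosen in the same way, at 0.778 and 0.604. Of the 12 receptor chaperones, 11 were above 0 with Sgk1 (median 0.40), 9 with Tsc22d3 (0.07) and 11 with Fkbp5 (0.26). With Fkbp5, 12 of 15 circadian genes (median 0.52) and 8 of 10 coregulators (0.44) were above 0. With Sgk1 these 2 lists had 11 and 7 genes above 0 (medians 0.16 and 0.19), and with Tsc22d3 10 and 9 (0.19 and 0.18). The 9 steroid handling and CRH genes had medians of 0.01 with Sgk1, 0.02 with Tsc22d3 and -0.26 with Fkbp5. Genes of 1 list are not independent, and these counts are a description over the same 10 libraries.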

How the data were processed

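RNA was measured in 10 libraries, 5 per group, with groups and replicate numbers taken from the sample titles. The authors deposited estimated counts per gene and per transcript. Salmon 1.5.2 and the mm10 genome build are named in the submitters' processing notes, and a SMARTer low-input kit is named in the labels' protocols. The annotation release and the use of strand are not given in the sources used here. All value columns were tied to a library, and 0 were unused. Symbols were assigned by identifier to 22155 of 22255 genes.

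Estimated counts were rounded, scaled by TMM, filtered with filterByExpr (minimum count 10, minimum total 15) and tested over all genes with edgeR 4.0.16 in R 4.3.3 (robust quasi-likelihood, group as the only term, two-sided, Benjamini-Hochberg threshold 0.05). Transcripts were treated the same way. The CPM printed are TMM-scaled. Correlations used log2 CPM (prior count 2, or log2(CPM + 1) for transcripts) and two-sided permutation tests with 100000 resamples. These ran in Python 3.11.15 with numpy 2.4.6 and scipy 1.17.1. The p-values of member pairs, marker relations and transcript relations were each adjusted within their own family. Those of the treatment test were adjusted over all genes, or all transcripts, tested. GENCODE M21 gave exon length and transcript names, and 3 counts are the lowest detectable level, covering counting error only.

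The members and lists were chosen with earlier results of these data known. By rule the text names the 10 genes, the 2 genes of smallest p in each pathway list, the 3 nearest patterns of Fkbp5, Sgk1 and Tsc22d3 and each leading transcript. Alternatives were DESeq2 1.42.0 size factors and Wald test, limma 3.58.1 voom with quality weights, library totals, other filters, a prior count of 0.5, the replicate number as a block and leaving out each library. The scripts were tested on simulated data.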

Additional observations from a re-analysis of the deposited data

Results flagged for a closer look

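In 22 sets of 5 libraries that were looked at for a value standing apart from its group, 2 held one, where chance alone gives about 1 in 20, or 1.1. Nr3c1 in vehicle replicate 2 was the highest of its group at 94.25 CPM, and Per1 in AM6545 replicate 2 was the highest of its group at 8.323 CPM. Both values are in the comparisons above.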

How the results depend on the processing

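The counts of members and of pathway genes past the adjusted threshold were 0 in all 17 alternative fits, and the smallest adjusted p of a member in any of them was 0.915. Of 170 fold changes of members under alternatives, 16 changed sign, all in Sgk1, Tsc22d3, Crhr1 or Nr3c1, whose fitted values lie near 0. With limma-voom Sgk1 was at 0.0157 and Tsc22d3 at 0.00286. Leaving out 1 library at a time gave log2 fold changes from -0.146 to 0.124 for Sgk1, from -0.149 to 0.0535 for Tsc22d3, from -0.102 to 0.101 for Crhr1 and from -0.0667 to 0.0108 for Nr3c1. The range was 0.077 to 0.264 for Fkbp5, 0.051 to 0.326 for Per1, -0.258 to -0.108 for Zbtb16, -0.255 to -0.10 for Hsd11b1, -0.139 to -0.0311 for Nr3c2 and -0.154 to -0.0968 for Klf9. The number of members at an unadjusted p under 0.05 ran from 0 to 1, where the 1 was Hsd11b1 without vehicle replicate 2, a fit in which 4.0% of all genes were at that level. The number of correlated member pairs ran from 0 to 1: without vehicle replicate 4 Tsc22d3 and Zbtb16 passed (r = 0.915, adjusted p = 0.0346), and without AM6545 replicate 3 Sgk1 and Tsc22d3 did. The median r of the targets was 0.474 to 0.60 over these settings and 0.454 by Spearman's rho. The cause of these changes was not tested.

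No batch is given in the sources used here, so the replicate numbers were not taken as pairs. Libraries of the same replicate number correlated from -0.186 to 0.393 in their deviations from the group means. Among 5 candidates each, 5 of 10 libraries correlated best with their own number. Whether the numbers mark pairs was not tested. With a replicate block 0 members, 0 pathway genes and 0 member transcripts passed the threshold, and the difference in the log2 Nr3c2 to Nr3c1 ratio was -0.0331. Per1 and Crhr1 had under 170 counts in every library, where the relative counting error is largest among the 10 genes.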
